A study of Mus musculus with 41 samples.

Results

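The genes described here are 10 genes of the stromal cells that surround marrow blood cells and give rise to bone and fat: the secreted factors Cxcl12, Kitl and Grem1, the receptors Lepr, Pdgfra and Pdgfrb, the transcription factors Ebf3, Foxc1 and Prrx1, and the surface protein Ly6a (also called Sca-1). They were chosen by symbol from the 43346 genes of the count table, and all 10 were among the 19292 genes with enough counts to be tested. The RNA was that of tibiae from 41 female INK-ATTAC mice on a C57BL/6 background. The labels list the molecule as genomic DNA, but they also describe an RNA extraction kit with removal of DNA and a series of expression profiling, and the counts are read here as RNA. This transgene places a drug-activated caspase under a fragment of the p16Ink4a promoter, so that AP20187 (AP) kills cells in which that promoter is active, and every group carries it. The labels give 12 young mice of 6 to 12 months, marked as vehicle with no dose or length of treatment (the study's methods name only the lower of these ages), and 29 old mice whose treatment began at 20 months and ran for 4 months. Of the old mice, 13 received vehicle (old + vehicle-treated, the old vehicle group) and 16 received AP at 10 mg per kg (old + AP-treated, the old AP group). The sample is the diaphysis of the bone after centrifugation to remove marrow, so that what it holds of the marrow stroma is what stayed behind. Each mouse is 1 library, named here by its number.

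In the marrow of mice, perivascular stromal cells that carry the leptin receptor overlap with the CXCL12-abundant reticular (CAR) cells. They make CXCL12, which holds blood stem and progenitor cells through the receptor CXCR4, and stem cell factor, the product of Kitl, which signals through KIT. Ebf3 and Foxc1 are needed to keep these cells as they are, whereas Grem1 encodes a secreted antagonist of bone morphogenetic proteins that also marks skeletal stem cells near the growth plate. Pdgfra together with Ly6a has been used to sort marrow mesenchymal progenitors, Pdgfrb is shared with pericytes, and Prrx1 marks the mesenchyme of the limb bud and cells that descend from it.

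For the members whose level differed most with age, the 250 bases before the start site are printed here as the regulatory sequence next to the gene, from the RefSeq promoter table (build GRCm38.p6). In total, 8 of the 10 genes had an entry, and Lepr had 2, of which the one farther upstream is shown. Sequences run 5′ to 3′ on the strand of the gene, and capitals mark matches, on either strand, to the CCAAT box, the GC box GGGCGG or the pattern CCCNNGGG that forms the core of Ebf sites.
Grem1, chr2:113758649-113758898, minus strand: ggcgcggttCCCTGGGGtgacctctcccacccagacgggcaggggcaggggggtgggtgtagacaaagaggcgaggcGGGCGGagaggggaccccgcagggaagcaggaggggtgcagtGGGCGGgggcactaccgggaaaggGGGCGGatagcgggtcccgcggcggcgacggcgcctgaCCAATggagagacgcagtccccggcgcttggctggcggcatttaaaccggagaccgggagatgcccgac
Pdgfra, chr5:75152001-75152250, plus strand: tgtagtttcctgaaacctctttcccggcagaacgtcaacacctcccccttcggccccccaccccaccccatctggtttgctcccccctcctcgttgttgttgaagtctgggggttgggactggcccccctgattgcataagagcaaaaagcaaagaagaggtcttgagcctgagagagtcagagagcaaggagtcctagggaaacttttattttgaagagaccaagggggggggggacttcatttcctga
Lepr, chr4:101717157-101717406, plus strand: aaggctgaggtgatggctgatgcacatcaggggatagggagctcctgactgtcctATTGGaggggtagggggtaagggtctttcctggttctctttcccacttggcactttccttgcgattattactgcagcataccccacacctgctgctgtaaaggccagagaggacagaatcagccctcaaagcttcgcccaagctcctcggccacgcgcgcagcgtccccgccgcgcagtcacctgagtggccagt
Cxcl12, chr6:117168285-117168534, plus strand: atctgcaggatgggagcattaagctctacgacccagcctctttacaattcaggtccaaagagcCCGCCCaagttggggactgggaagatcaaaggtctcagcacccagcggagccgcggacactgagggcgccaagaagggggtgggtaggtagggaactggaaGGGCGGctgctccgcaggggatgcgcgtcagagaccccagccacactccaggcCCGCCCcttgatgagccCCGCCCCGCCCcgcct

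The promoters differed in base composition and in the letters found. Grem1 had 3 GC boxes, 1 CCAAT box and 1 match to CCCNNGGG at a GC content of 72.0%, Cxcl12 had 5 GC box matches at 64.4%, Lepr had 1 CCAAT box at 58.4%, and Pdgfra had no match to any motif searched at 54.4%. The median over all 32851 promoters of the table was 52.4%. A GC box stood in 32.7% of all promoters and in those of 6 of the 8 genes (for Lepr only in the entry not shown, since a gene counts when any of its entries holds the motif), CCAAT in 33.8% and 3 genes (Foxc1, Grem1 and Lepr), and CCCNNGGG in 11.8% and 2 genes (Ebf3 and Grem1). TATAAA, found in 12.4% of all promoters, was present in that of Kitl, and the forkhead core TAAACA, in 12.0%, in none of the 8. These counts describe the letters in this window and are not evidence of binding.

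The libraries held between 37028959 and 75942717 counts (median 47774880), so that the lowest count of any of the 10 genes in any mouse was still 273, for Grem1 in an old + vehicle-treated mouse. The variance between any pair of mice of a group was more than 33 times that of counting error, and no library looked like a copy of another. The labels name no batch, and the mouse numbers of young and old animals do not mix, so that age cannot be told apart from any batch that went with it. Cdkn2a, the locus whose promoter drives the transgene, had 0.596 ± 0.307 CPM (counts scaled to the library total, SD, n = 12) in young, 2.78 ± 2.02 (SD, n = 13) in the old vehicle group and 1.75 ± 1.70 (SD, n = 16) in the old AP group. The libraries held the markers of bone, with 7 osteoblast markers summing to between 5987 and 87956.5 CPM per mouse, and markers of muscle and blood cells were present in every library. In 3 libraries the profile was less like its group than in any other library. Old + AP-treated mice 18 and 19 had osteocyte markers at 281 and 291 CPM, against 929.7 CPM or more in the other 39 mice, and old + vehicle-treated mouse 16 had the lowest median correlation with the other mice within the vehicle group (0.942), above those of mice 19 (0.915) and 18 (0.937) with theirs. Mouse 16 stood less far apart, since mouse 23 of its group came next at 0.951. Fits without mice 16, 18 and 19 are given beside the values that move most.

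Per kilobase of gene model, Cxcl12 stood far above the other members in young mice, at 208 ± 45.2 CPM per kb (SD, n = 12), followed by Ly6a at 60.7 ± 13.5. Pdgfra (28.5 ± 4.95) and Pdgfrb (27.03 ± 3.95) came next and were not ordered beyond their spread, with Pdgfra above Pdgfrb in 7 of 12 mice. Lepr lay at 15.9 ± 3.01 CPM per kb, above Kitl in all 12 mice. From Kitl (10.7 ± 1.61) through Grem1 (8.64 ± 1.63), Prrx1 (7.96 ± 1.77) and Ebf3 (5.92 ± 1.37) to Foxc1 (3.89 ± 0.723), each gene overlapped its neighbour within 1 SD. The order changed in both old groups. Grem1 dropped from the seventh place to the last, at 3.10 ± 1.10 CPM per kb (SD, n = 13) with vehicle and 2.91 ± 0.687 (SD, n = 16) with AP, and lay below Foxc1 in 11 of 13 and 13 of 16 mice. Pdgfra, level with Pdgfrb in youth, lay below it in all 13 old + vehicle-treated and all 16 old + AP-treated mice. The ratio of Cxcl12 to Ly6a narrowed too, with means of 136 ± 40.9 and 77.3 ± 21.9 CPM per kb in the old vehicle group.

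The first question was which of these genes differ in bone between young and old mice. A gene was called when its adjusted p was under 0.05 and its log2 fold change above 0.5 or below -0.5 (edgeR's quasi-likelihood test, Benjamini-Hochberg adjustment over all genes tested). In old + vehicle-treated against young mice 4 of the 10 genes were called lower, Grem1, Pdgfra, Lepr and Cxcl12, beside 4.76% of all genes tested. None was called higher, beside 4.30% of all genes. By the adjusted p alone 6 of 10 were lower, with Kitl and Ebf3 added, beside 9.80% of all genes. The median log2 fold change was -0.38 for the 10 genes and 0.0066 for all genes tested. With AP against young mice 3 were called lower (4.85% of all genes) and none higher (3.73%), the same 6 were lower by the adjusted p alone (8.66%), and the median was -0.37 against 0.017. Both comparisons share the 12 young mice. A lower level in bulk RNA can come from fewer cells of a type or from less RNA per cell, which cannot be told apart here.

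**Figure D1:**
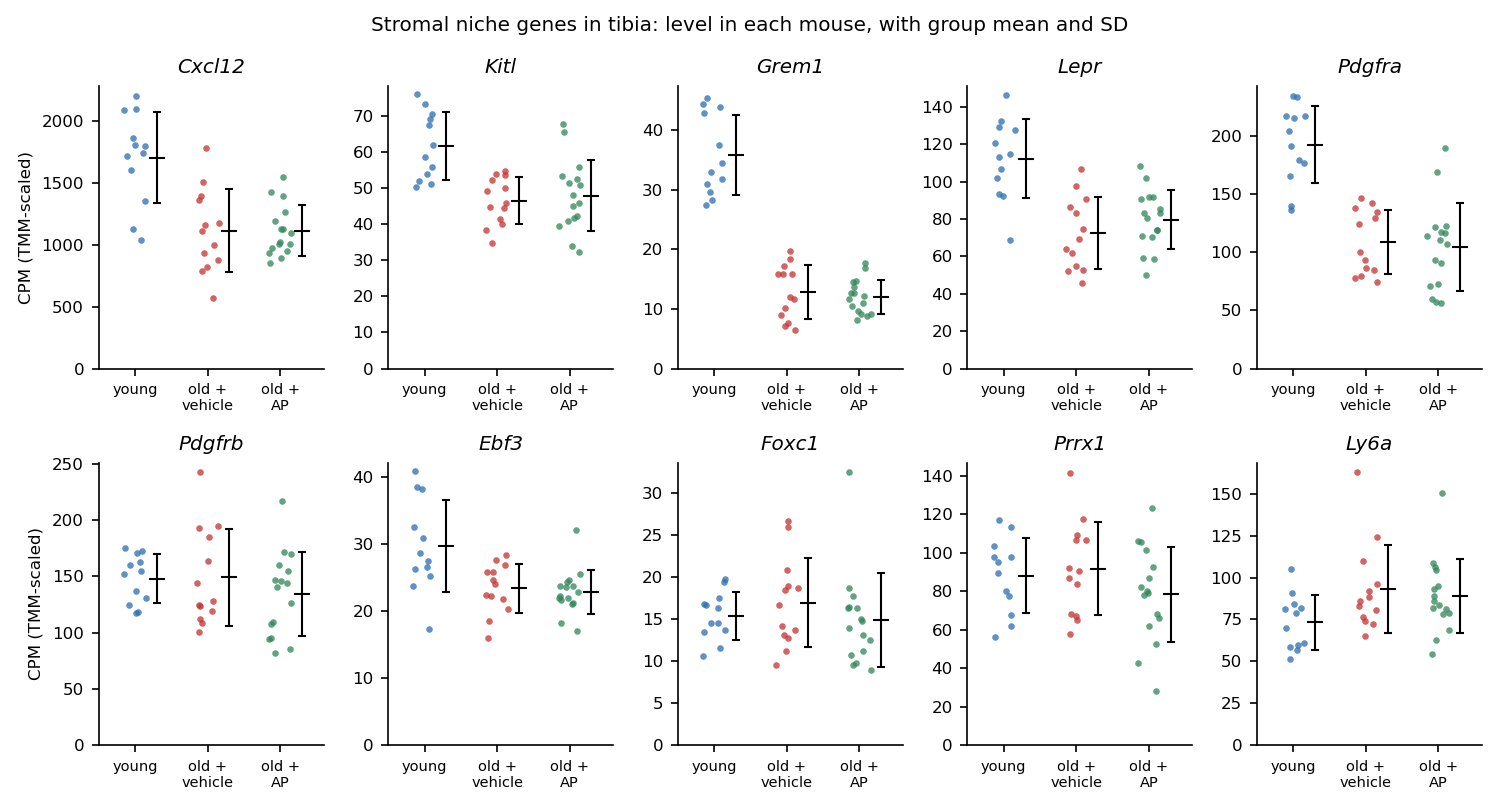
Level of each gene in each mouse, in CPM after TMM scaling (y axis, from 0), for 12 young mice, 13 of the old vehicle group and 16 of the old AP group, with the group mean and SD as a black bar beside the points. For Grem1 every old mouse lies below every young mouse, for Cxcl12, Kitl, Lepr, Pdgfra and Ebf3 the groups are shifted but overlap, and for Pdgfrb, Foxc1 and Prrx1 old mice extend below and above the young range.

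Cxcl12 (ENSMUSG00000061353, chromosome 6, 117168535 to 117181367), the chemokine that retains blood progenitors, had between 1039 and 2201 CPM in young mice with a median of 1769. In old + vehicle-treated mice it ranged from 569.6 to 1777 CPM with a median of 1110.2, and in the old AP group from 856 to 1549.8 with a median of 1060.2. Most old mice lay in the lower part of the young range or below it: 12 of 13 with vehicle and 16 of 16 with AP were under the young median, and 6 and 8 of them under the lowest young mouse. The log2 fold change was -0.61 (standard error 0.14, adjusted p = 0.00165 by edgeR) with vehicle and -0.61 (standard error 0.13, adjusted p = 0.00123) with AP. The lowest level of all belonged to mouse 16, and without mice 16, 18 and 19 the values were -0.56 (adjusted p = 0.00372) and -0.63 (adjusted p = 0.00111).

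Kitl (ENSMUSG00000019966, chromosome 10, 100015630 to 100100413), which encodes stem cell factor, varied least among the members in young mice after Pdgfrb, with a coefficient of variation of 15.1%. Young mice had 50.2 to 76.1 CPM (median 60.3), old + vehicle-treated mice 34.8 to 54.7 (median 45.99) and old + AP-treated mice 32.2 to 67.8 (median 46.9). All 13 old + vehicle-treated mice and 14 of 16 old + AP-treated mice were below the young median, and 9 of each group were below the lowest young mouse. The difference passed the adjusted p only, with vehicle at -0.41 on the log2 scale (standard error 0.10, adjusted p = 0.0027 by edgeR) and -0.36 (standard error 0.09, adjusted p = 0.00598) with AP.

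Grem1 (ENSMUSG00000074934, chromosome 2, 113746164 to 113758646), the antagonist of bone morphogenetic proteins, showed the largest difference of the 10 genes. Its level was 27.4 to 45.5 CPM in young mice (median 33.8), 6.41 to 19.8 in the old vehicle group (median 12.0) and 8.23 to 17.7 in the old AP group (median 12.0). The highest old mouse was thus below the lowest young mouse in both comparisons. Such a separation towards lower levels was seen for 0.327% of all genes tested with vehicle and 0.130% with AP. Grem1 fell by 64.1% with vehicle (log2 fold change -1.48, standard error 0.16, adjusted p = 1.86e-08 by edgeR) and by 66.3% with AP (log2 fold change -1.57, standard error 0.15, adjusted p = 8.17e-10). Among the 19292 log2 fold changes it ranked 86th from the lowest with vehicle and 75th with AP. With each mouse left out in turn the values stayed between -1.55 and -1.42 and between -1.61 and -1.54.

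Lepr (ENSMUSG00000057722, chromosome 4, 101717404 to 101815352), the leptin receptor that marks most of the stromal cells around marrow sinusoids, ranged from 68.6 to 146 CPM in young mice (median 114), 45.9 to 107 in the old vehicle group (median 69.0) and 50.2 to 109 in the old AP group (median 81.8). Every old mouse lay below the young median, and 6 of 13 with vehicle and 3 of 16 with AP lay below the lowest young mouse. The log2 fold change was -0.63 (standard error 0.13, adjusted p = 0.000436 by edgeR) with vehicle. With AP it was -0.49 (standard error 0.12, adjusted p = 0.00379), just short of the fold change asked for. That gap was too narrow to separate both old groups: without mouse 3, 4, 5, 12, 19, 25, 29, 31, 32, 34, 37 or 40 Lepr was called with AP as well, at -0.54 to -0.50, and without mice 16, 18 and 19 at -0.52.

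Pdgfra (ENSMUSG00000029231, chromosome 5, 75152291 to 75198204), a receptor for platelet-derived growth factors on mesenchymal progenitors and fibroblasts, had 136 to 234 CPM in young mice (median 197), 73.9 to 146 in the old vehicle group (median 100.3) and 56.0 to 189 in the old AP group (median 108). All old mice were below the young median, and 10 of 13 with vehicle and 14 of 16 with AP were below the lowest young mouse. The log2 fold change was -0.83 (standard error 0.16, adjusted p = 0.000349 by edgeR) and -0.89 (standard error 0.15, adjusted p = 8.89e-05). A microRNA gene that overlaps Pdgfra in the table, Mir7025, had a mean count of 37.9 against 6393 for Pdgfra.

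Pdgfrb (ENSMUSG00000024620), the related receptor of pericytes and other mural cells, had no such difference. It ranged from 117 to 176 CPM in young mice (median 153), 101 to 243 in the old vehicle group (median 128) and 81.9 to 217 in the old AP group (median 143). Old mice lay on both sides of the young range, with 3 of 13 vehicle-treated mice below its lowest and 4 above its highest value, and the coefficient of variation was 14.6% in young mice against 28.9% and 27.6% in the old groups. The log2 fold change was 0.01 (95% interval -0.27 to 0.29, adjusted p = 0.965 by edgeR) with vehicle and -0.14 (95% interval -0.41 to 0.13, adjusted p = 0.501) with AP, or -0.079 with AP without mice 16, 18 and 19. Because both receptors are measured in the same library, their ratio can be taken mouse by mouse. The log2 ratio of Pdgfra to Pdgfrb counts was 0.37 ± 0.23 (SD, n = 12) in young, -0.45 ± 0.20 (SD, n = 13) in the old vehicle group and -0.41 ± 0.21 (SD, n = 16) in the old AP group, and differed from the young value in both old groups (two-sided permutation test, adjusted p = 6.43e-05 for each, over 135 ratio tests).

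Among the transcription factors, Ebf3 (ENSMUSG00000010476, chromosome 7, 137193673 to 137314445) was the one that moved with the secreted factors. Its level was 17.4 to 40.95 CPM in young mice (median 28.1), 15.9 to 28.4 in the old vehicle group (median 24.04) and 17.1 to 32.1 in the old AP group (median 22.6). The ranges overlapped widely, although 12 of 13 and 15 of 16 old mice were below the young median. Its log2 fold change was -0.34 (standard error 0.10, adjusted p = 0.0152 by edgeR) with vehicle and -0.38 (standard error 0.10, adjusted p = 0.00647) with AP, which passed the adjusted p alone.

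Foxc1 (ENSMUSG00000050295, chromosome 13, 31806691 to 31810643), which specifies CAR cells, ranged from 10.6 to 19.8 CPM in young mice (median 15.4), 9.49 to 26.6 in the old vehicle group (median 16.6) and 8.97 to 32.4 in the old AP group (median 14.3). The log2 fold change of 0.14 (95% interval -0.19 to 0.47, adjusted p = 0.605 by edgeR) with vehicle and -0.05 (95% interval -0.37 to 0.26, adjusted p = 0.844) with AP did not pass. Single mice moved both, to 0.068 without mouse 6 and to -0.17 without mouse 27. Old mice spread to both sides of the young range.

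Prrx1 (ENSMUSG00000026586, chromosome 1, 163245119 to 163313710), the factor of limb mesenchyme, ranged from 56.0 to 117 CPM in young mice (median 92.2), 57.7 to 141 in the old vehicle group (median 90.3) and 28.2 to 123 in the old AP group (median 79.6). The highest value of all was that of old + vehicle-treated mouse 16, and the lowest values were those of old + AP-treated mice 19 and 18. The log2 fold change was 0.06 (95% interval -0.28 to 0.39, adjusted p = 0.850 by edgeR) with vehicle, which turned to -0.0089 without mouse 16, and -0.17 (95% interval -0.49 to 0.15, adjusted p = 0.481) with AP, which was -0.064 without mice 16, 18 and 19. Genes that overlap Prrx1 in the table had mean counts of 0.512 to 2.78, against 4042 for Prrx1.

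Ly6a (ENSMUSG00000075602, chromosome 15, 74994877 to 74998031), the surface protein of the Ly6 family found on progenitors, endothelium and lymphocytes, was the one member whose median was higher in both old groups than in young mice. It had 51.1 to 105 CPM in young mice (median 74.2), 64.8 to 163 in the old vehicle group (median 85.8) and 54.4 to 151 in the old AP group (median 84.7). The top value of each old group came from a library that stood apart, mouse 16 and mouse 18. In all, 11 of 13 and 13 of 16 old mice lay above the young median, but the log2 difference with vehicle, 0.35 (standard error 0.14, adjusted p = 0.0671 by edgeR), and 0.28 (standard error 0.13, adjusted p = 0.126) with AP did not pass. Without mice 16, 18 and 19 it was 0.26 (adjusted p = 0.127) and 0.21 (adjusted p = 0.216). The value with vehicle passed the adjusted p when mouse 31 (0.41, adjusted p = 0.0309) or mouse 20 was left out. Ly6a has close relatives in a cluster of Ly6 genes, and how reads that match several of them were counted is not given in the sources used here, so that its level is uncertain.

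**Figure D2:**
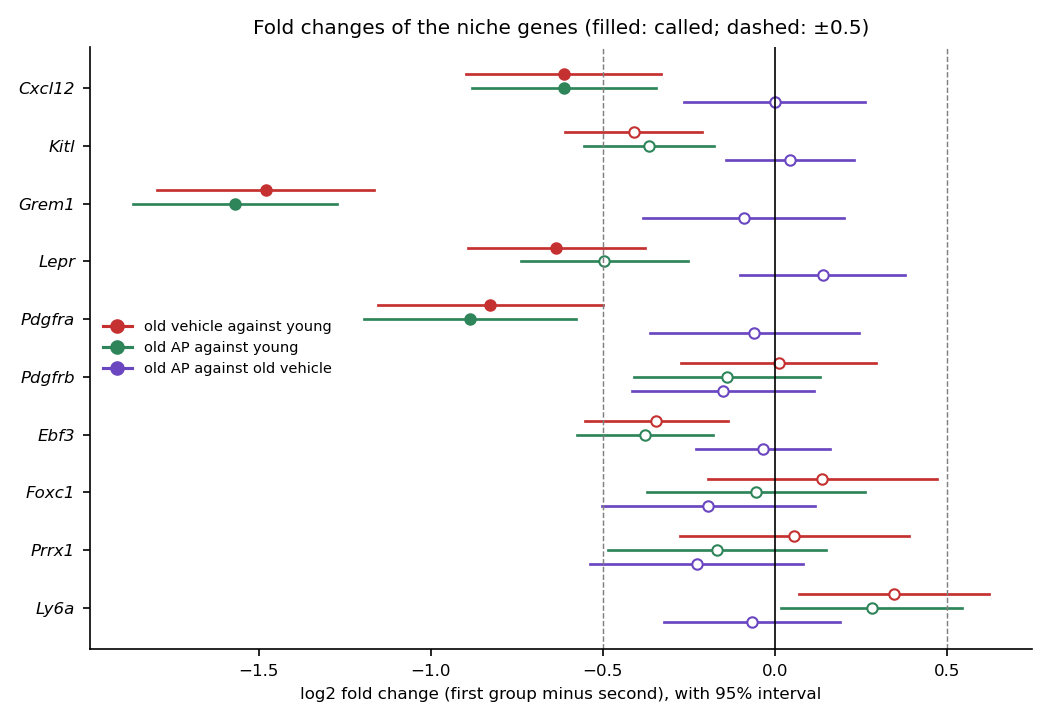
Log2 fold change with its 95% interval (x axis) for the 10 genes in 3 comparisons, from edgeR; filled points were called, and dashed lines mark -0.5 and 0.5. Grem1 lies alone at -1.48 and -1.57 against young mice, and all 10 intervals for AP against vehicle contain 0.

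The second question was whether clearing p16-expressing cells in old mice changed these genes. None of the 10 was called between the AP and vehicle groups of old mice, beside 0.0726% of all genes tested (14 genes by edgeR, 200 genes by DESeq2, which called none of the 10 either). None had an unadjusted p under 0.05, and the smallest adjusted p was 0.363. The log2 fold changes lay between -0.23 for Prrx1 (95% interval -0.54 to 0.08) and 0.14 for Lepr (95% interval -0.10 to 0.38). Both ends moved without mice 16, 18 and 19, to -0.051 for Prrx1 and 0.081 for Lepr. For the genes that were lower with age the intervals were -0.38 to 0.20 for Grem1, -0.26 to 0.26 for Cxcl12, -0.36 to 0.24 for Pdgfra, -0.14 to 0.23 for Kitl and -0.23 to 0.16 for Ebf3. For each of these genes and for Lepr, the upper bound was smaller than the size of its difference between old + vehicle-treated and young mice. For Lepr, 13 of 16 old + AP-treated mice lay above the median of the vehicle group and 1 above its highest mouse, yet the difference was within the spread between mice (adjusted p = 0.468 by edgeR). This comparison and that of old + vehicle-treated with young mice contain the same 13 vehicle-treated mice.

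Whether the genes moved by the same amount was tested with ratios of 2 members within a mouse, which do not depend on how libraries are scaled, a test added after the data had been seen. Of the 45 ratios, 32 differed with vehicle and 25 with AP, each against young mice, and none differed between the old groups (two-sided permutation tests with 100000 resamples, adjusted over 135 tests, whose smallest unadjusted p can be 1e-05). Grem1 fell relative to each of the other 9 genes in both comparisons. Even against Pdgfra, the gene closest to it, the log2 ratio of Grem1 was -2.42 ± 0.36 (SD, n = 12) in young, -3.12 ± 0.54 (SD, n = 13) in the old vehicle group and -3.06 ± 0.51 (SD, n = 16) in the old AP group (adjusted p = 0.00143 and 0.00278, permutation test). Its log2 ratio to Ebf3 was 0.28 ± 0.29 in young against -0.94 ± 0.41 and -0.95 ± 0.29 in old mice. Between the AP and vehicle groups of old mice the smallest adjusted p was 0.0557, for Lepr over Foxc1 (difference 0.36) and Lepr over Pdgfrb (difference 0.31), both higher with AP. Leaving out mouse 2, 7, 10, 17, 21, 25, 26, 27, 31 or 40 brought between 1 and 4 ratios past the threshold in that comparison. Mice 31 and 40 are young and do not enter it. The adjustment is shared by all 135 tests, and the fits with 1 mouse left out used fewer permutations.

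Related genes were examined in lists, described by counts and medians. Of all genes tested, 4.76% were called lower and 4.30% higher with vehicle against young mice, and 4.85% and 3.73% with AP. In lists of 18 genes or fewer these shares come to less than 1 gene in each direction, so that a single called gene says nothing about its list. Of 12 other niche factors, which feed or hold blood cells, 2 were called lower with vehicle against young mice and none higher, with a median log2 fold change of -0.19 beside 0.0066 for all genes. These were Ptn (pleiotrophin), at -1.97 (adjusted p = 9.22e-05 by edgeR) with means of 7.47 and 29.2 CPM, and Igf1 (insulin-like growth factor 1), at -0.61 (adjusted p = 0.000351). With AP against young mice 3 were called lower, Ptn at -1.96, Igf1 at -0.63 and the lymphoid cytokine Il7 at -0.69. The fall of Ptn was the largest among these factors in both comparisons. Of 13 other genes of CAR cells, 5 were called lower and 1 higher with vehicle (median -0.29) and 5 lower and none higher with AP (median -0.41). The 4 largest with vehicle were Gdpd2 (-0.96), Esm1 (-0.76), Kng1 (-0.68) and Adipoq (adiponectin, -0.58), all lower, while Cxcl14, named after its value was seen, was the one called higher, at 0.54. With AP they were Gdpd2 (-0.94), Esm1 (-0.93), Adipoq (-0.68) and Agt (angiotensinogen, -0.64).

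Binding partners of the 10 genes were called at about the share of all genes. Of 11 ligands and receptors, among them Cxcr4 and Kit on blood cells, only Pdgfd, a ligand of PDGF receptors, was called, with a log2 fold change of -1.07 with vehicle (adjusted p = 7.58e-05 by edgeR, means of 20.0 and 41.9 CPM) and -1.08 with AP. Every old + vehicle-treated mouse had less Pdgfd than every young mouse, a separation seen for 0.327% of all genes tested. Cxcr4, the receptor of CXCL12, had a log2 fold change of -0.12 (adjusted p = 0.678), and Kit one of 0.01 (adjusted p = 0.966). Of 11 paralogs, Pdgfrl was called lower (-0.88 with vehicle and -1.01 with AP) and Ly6c2 higher with AP (0.67). Of 18 skeletal progenitor genes, 2 were called higher and 2 lower with vehicle: Nes (nestin) at 1.01 and Gli1 at 0.86, and Postn (periostin) at -1.57 and Snai2 at -0.61. With AP the called genes were Postn (-1.94), Snai2 (-0.67) and Pdpn (-0.60), lower, and Nes (0.65), higher.

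With vehicle, of 10 mural genes 2 were called higher, Des (desmin, 1.19) and Cspg4 (NG2, 0.53), and none lower (median 0.065), while of 10 fibroblast genes 2 were called lower, the matrix proteoglycans Lum (-1.49) and Dcn (-1.07), and none higher (median -0.14). Desmin is also a muscle protein, and the sum of skeletal muscle markers had a median of 56589 CPM in old + vehicle-treated against 34126 in young mice. The part of muscle in the difference of Des was not tested. With AP, 1 mural gene was called lower (Higd1b, -0.55) and 3 fibroblast genes were called lower (Lum, -1.48, Dcn, -1.15, and Fbn1, -0.51). No gene of any of these lists was called between the old groups, where 14 genes were called in all.

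**Figure D3:**
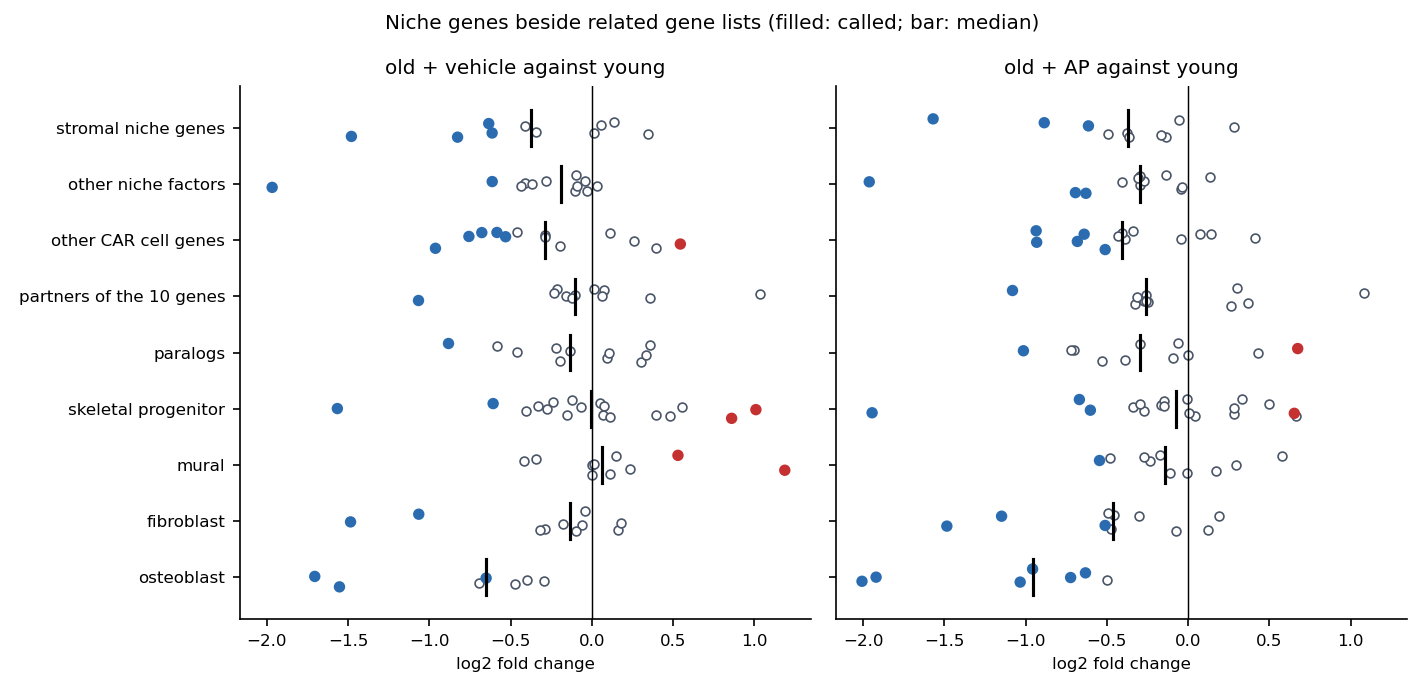
Log2 fold changes against young mice (x axis) of the 10 niche genes, of 7 related lists and of osteoblast markers, with old + vehicle-treated mice on the left and old + AP-treated mice on the right; filled points were called (blue lower, red higher) and the bar is the median of the list. The niche genes have medians of -0.38 and -0.37, and the osteoblast markers, at -0.65 and -0.96, lie lower still.

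How the genes varied together from mouse to mouse was measured on log2 CPM with the group means subtracted, so that differences between groups do not enter. Of 45 pairs, 26 were correlated by both Pearson's r and Spearman's rho (27 by each, two-sided permutation tests within groups, Benjamini-Hochberg adjustment over the 45 pairs), and all 26 were positive and of the same sign within each of the 3 groups. A first set held Cxcl12, Ebf3, Kitl, Lepr and Grem1. Cxcl12 and Ebf3 had r = 0.84 and rho = 0.86 over 41 mice (permutation p = 1e-05 for each, adjusted 5.62e-05, the smallest these permutations can give), with r = 0.82 without the 2 mice farthest from the median and 0.86, 0.93 and 0.79 within the young, old vehicle and old AP groups. Cxcl12 and Lepr had r = 0.79 and rho = 0.79 (same p), and Cxcl12 and Grem1 had r = 0.74 and rho = 0.72 (same p).

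A second set held the PDGF receptors and Foxc1. Pdgfra and Pdgfrb had the highest value of all pairs, r = 0.86 and rho = 0.85 (permutation p = 1e-05, adjusted 5.62e-05, r = 0.84 without the 2 farthest mice), and Foxc1 and Pdgfrb had r = 0.81 and rho = 0.78 (same p). Within groups, a mouse with more Pdgfra thus had more Pdgfrb as well, although between age groups Pdgfra was called lower and Pdgfrb was not. The sets were not separate: all 10 pairs within the first and all 3 within the second passed both tests, and so did 13 of the 15 pairs that join them, among them Cxcl12 and Pdgfrb (r = 0.54), Lepr and Pdgfrb (r = 0.54) and Lepr and Pdgfra (r = 0.53), which lay above Kitl and Grem1 of the first set (r = 0.45). Prrx1 and Ly6a belonged to neither set. No pair that includes one of them passed both tests, and the lowest value, for Cxcl12 and Prrx1, was r = -0.34 (permutation p = 0.0226, adjusted 0.0376) with rho = -0.27 (adjusted p = 0.142). The pairs share libraries and depth, and they were not tested against pairs of other genes. Without mice 16, 18 and 19 there were 26 pairs in place of 27 by Pearson's r.

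**Figure D4:**
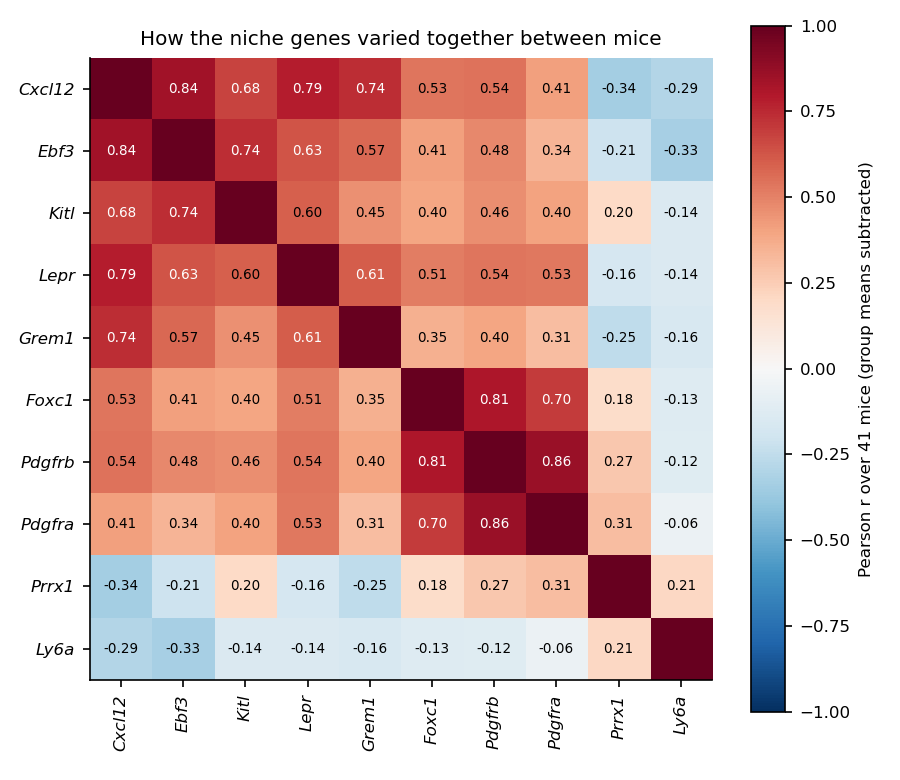
Pearson's r between the 10 genes over 41 mice after subtraction of group means, from -1 (blue) to 1 (red), with genes ordered by the sets named in the text. The first 5 genes and the next 3 form warm blocks, up to 0.86 for Pdgfra and Pdgfrb, while Prrx1 and Ly6a have values between -0.34 and 0.31 with all others.

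The genes of the whole table most like each member on this measure, out of 15541 genes averaging 1 CPM or more, are given as a description. For Cxcl12 they were Esm1 (r = 0.91), Ebf3 (0.84) and F8 (0.84), and Ebf3 itself was most like Cxcl12 (0.84), Esm1 (0.79) and Dpep1 (0.75). Kitl was most like Ebf3 (0.74), Ebf1 (0.74) and 9430020K01Rik (0.72), Lepr most like Ctdspl (0.79), Cxcl12 (0.79) and Kctd12 (0.73), and Grem1 most like Smoc1 (0.75), the immunoglobulin segment Ighv1-62-2 (0.74) and Cxcl12 (0.74). In this first set the nearest genes thus included other members for each of the 5, although some members were far apart. Grem1 ranked 592nd for Kitl, and Kitl 164th for Lepr. Pdgfra was most like Ptpn13 (0.93), Fndc3b (0.92) and Pard6g (0.92), Pdgfrb most like Epha2 (0.92), Ptprf (0.92) and Fmnl3 (0.92), and Foxc1 most like Ak5 (0.88), Heph (0.87) and Serpine2 (0.86). In this second set the nearest genes included no other member, and many other genes were closer. Pdgfrb ranked 174th for Pdgfra and 28th for Foxc1, and Foxc1 ranked 940th for Pdgfra and 322nd for Pdgfrb. Prrx1 was most like Habp4 (0.93), Tgfb2 (0.91) and Pard3 (0.91), and Ly6a had the weakest neighbours, Ly6c1 (0.69), Serpina3n (0.69) and Mmp3 (0.67).

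Markers of other cells of the bone moved with several of these genes. Of 7 osteoblast markers, 3 were called lower with vehicle against young mice, the osteocalcin genes Bglap (-1.71) and Bglap2 (-1.55) and bone sialoprotein, Ibsp (-0.65). With AP 6 were, the 4 largest being Bglap (-2.01), Bglap2 (-1.92) and the type I collagen genes Col1a2 (-1.03) and Col1a1 (-0.96). Bglap and Bglap2 are near-identical copies, so that the split of reads between them is uncertain. The osteoblast sum ranged from 33127.5 to 87956.5 CPM in young, from 14524 to 77048.5 in old + vehicle-treated and from 5987 to 67402.5 in the old AP group. Within groups the sum was correlated with Pdgfra (r = 0.89, rho = 0.90), Pdgfrb (r = 0.83, rho = 0.82) and Foxc1 (r = 0.71, rho = 0.70), each with an adjusted permutation p of 0.000144 for r and 0.000162 for rho over 130 relations, and r = 0.88, 0.85 and 0.66 without the 2 farthest mice. Lepr (r = 0.37, rho = 0.39, adjusted p = 0.0478 and 0.042, permutation test) and Cxcl12 (r = 0.35, rho = 0.39, adjusted p = 0.0478 and 0.0362) passed more narrowly, and Grem1 (r = 0.26) did not.

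The sum of 6 chondrocyte markers, with medians of 1729 CPM in young, 781 in the old vehicle and 824 in the old AP group, was correlated with 6 of the 10 genes. These were Pdgfra (r = 0.71, rho = 0.64), Pdgfrb (r = 0.64, rho = 0.60), Foxc1 (r = 0.61, rho = 0.62), Grem1 (r = 0.52, rho = 0.54, adjusted permutation p = 0.00347 and 0.00287, r = 0.46 without the 2 farthest mice), Cxcl12 (r = 0.46, rho = 0.47) and Lepr (r = 0.44, rho = 0.44). Single chondrocyte markers did not all follow the sum. Their log2 fold changes against young mice ranged from -1.12 to 0.56 (median -0.59) with vehicle. With AP they ranged from -1.45 to 1.26 (median 0.57). The part of chondrocyte markers in the difference of Grem1 was not tested. Osteoclast, endothelial, macrophage and osteocyte markers also went with the second set, each with all 3 genes by both tests. Pdgfrb had r = 0.75, 0.66, 0.55 and 0.62 with these sums, Foxc1 0.77, 0.62, 0.56 and 0.53, and Pdgfra 0.64, 0.52, 0.43 and 0.58. Lepr and Cxcl12 went with osteoclast (r = 0.43 and 0.47) and macrophage markers (0.45 and 0.50), and Kitl with osteocyte (0.51), endothelial (0.59) and adipocyte markers (0.51). Not all of these held in each group. Within the old AP group Lepr and Cxcl12 had r = 0.059 and 0.057 with macrophage markers. Within young mice Kitl had r = -0.012 with endothelial and -0.015 with adipocyte markers. B cell markers, which were lower with age, went with Cxcl12 (r = 0.51), Ebf3 (0.45) and Kitl (0.39), and plasma cell markers with Cxcl12 (0.41). The part of these lists in the differences was not tested. B cell markers entered a covariate summed with neutrophil and erythroid markers, but made up little of it. In young mice their median was 215 CPM, beside 10615 for neutrophil and 9904 for erythroid markers.

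With the osteoblast sum as a covariate, chosen after the data had been seen, Grem1 remained called at -1.39 with vehicle (adjusted p = 9.12e-08 by edgeR) and -1.40 with AP (adjusted p = 9.36e-07). Pdgfra went to -0.53 (adjusted p = 1.08e-05) and -0.39 (adjusted p = 0.00246), the latter under the fold change asked for, and Cxcl12 to -0.51 (adjusted p = 0.00605) and -0.41 (adjusted p = 0.0776). Lepr went to -0.54 (adjusted p = 0.00176) and -0.31 (adjusted p = 0.148). Ebf3 no longer passed the adjusted p in either comparison (0.0565 and 0.151), nor did Kitl with AP (0.141). Foxc1 and Pdgfrb instead passed it as higher with vehicle, at 0.37 (adjusted p = 0.0225) and 0.23 (adjusted p = 0.0477), under the fold change asked for. Since the sum itself differs between age groups, such a fit also takes away part of any difference the 2 share.

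Prrx1 had relations with 7 of the 13 marker lists, positive with muscle and endothelial markers and negative with those of neutrophils, erythroid cells, plasma cells, T cells and macrophages. The sum of 8 skeletal muscle markers was correlated with Prrx1 (r = 0.71, rho = 0.66, adjusted permutation p = 0.000144 and 0.000162) and inversely with Cxcl12 (r = -0.60, rho = -0.59, adjusted p = 0.000325 and 0.00078), Lepr (r = -0.51, rho = -0.49) and Grem1 (r = -0.46, rho = -0.45). Without the 2 farthest mice r was 0.59, -0.53, -0.41 and -0.40. Ebf3 passed as well (r = -0.38, rho = -0.37), and Kitl did not (r = -0.014). Both differed between groups. Within the young, old vehicle and old AP groups r was -0.55, -0.70 and 0.024 for Ebf3, and -0.35, -0.58 and 0.43 for Kitl. The sum of 8 neutrophil markers was inversely correlated with Prrx1 (r = -0.78, rho = -0.81, adjusted permutation p = 0.000144 and 0.000162, r = -0.74 without the 2 farthest mice), and that of 7 erythroid markers likewise (r = -0.69, rho = -0.72). The erythroid sum was correlated with Cxcl12 (r = 0.49, rho = 0.47) and Grem1 (r = 0.40, rho = 0.40), and the neutrophil sum with no other member by both tests. For Prrx1 the endothelial sum had r = 0.65 and rho = 0.49 (adjusted permutation p = 0.000433 and 0.00838, r = 0.45 without the 2 farthest mice), the T cell sum r = -0.58, the plasma cell sum r = -0.52 and the macrophage sum r = -0.38. With the muscle sum as a covariate Cxcl12, Lepr, Grem1 and Pdgfra were all called with vehicle, at -0.52, -0.56, -1.39 and -0.79. With the sum of neutrophil, erythroid and B cell markers they were too, at -0.57, -0.62, -1.44 and -0.87.

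**Figure D5:**
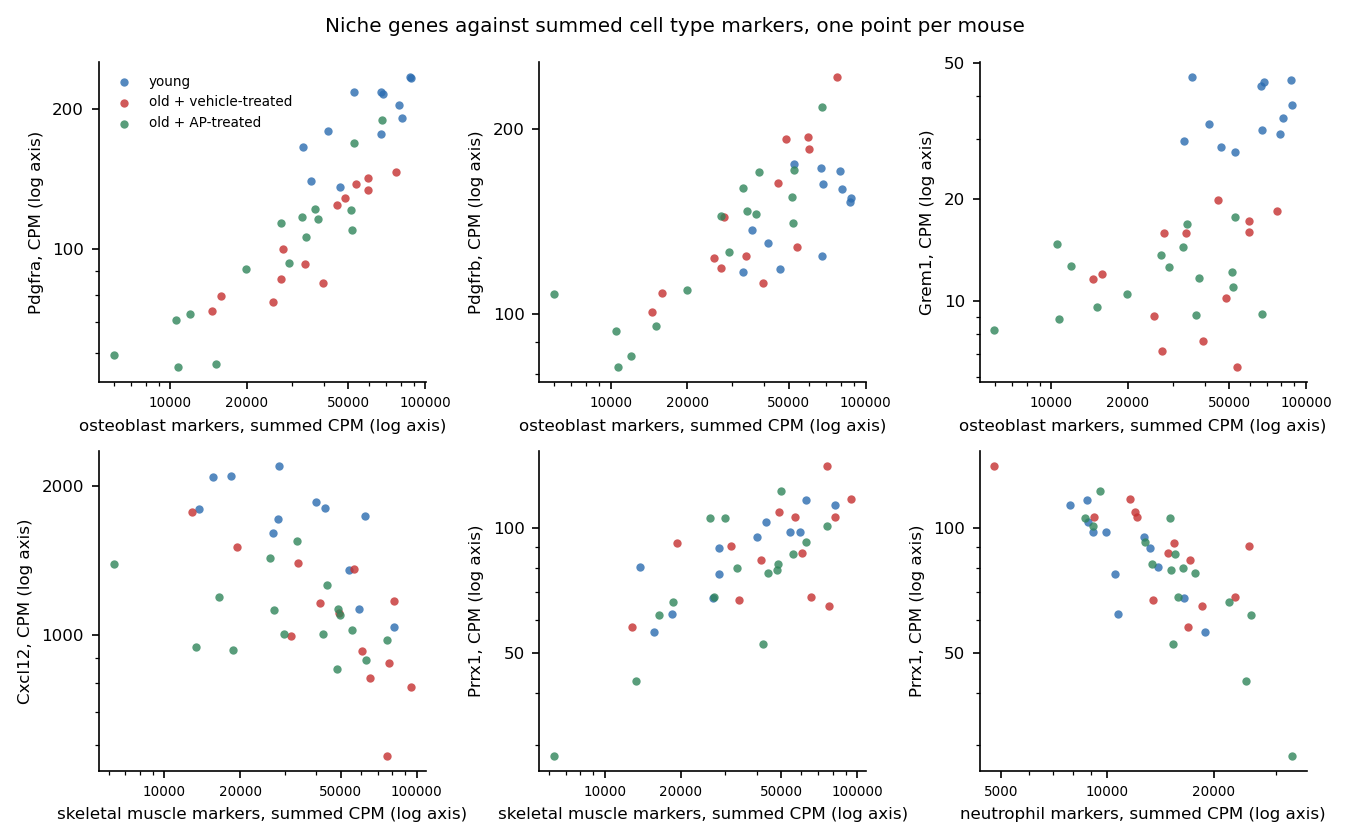
Level of Pdgfra, Pdgfrb, Grem1, Cxcl12 and Prrx1 (CPM, log axes) against the summed CPM of osteoblast, skeletal muscle or neutrophil markers (log axes), with 1 point per mouse. Pdgfra and Pdgfrb rise with osteoblast markers inside each group, Grem1 is lower in every old than in every young mouse, with osteoblast sums in part of the old mice below those of any young mouse, and Prrx1 goes up with muscle and down with neutrophil markers.

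The remaining marker lists differed with age in part. With vehicle against young mice, 3 of 7 erythroid markers were called lower (Hba-a1, Hbb-bs and Hbb-bt, at -1.03 to -0.93), as were 5 of 6 B cell markers, among them Ms4a1 (-1.12), Pax5 (-1.09) and Cd79b (-0.97), and 2 of 6 chondrocyte markers, Col2a1 (-1.12) and Col9a1 (-0.91). The summed B cell markers ranged from 120.3 to 433 CPM in young, from 45.8 to 265 in old + vehicle-treated and from 67.5 to 312 in the old AP group. Of 6 osteocyte markers Mepe (0.85) and Sost (0.80) were called higher and Phex (-0.82) lower, of 7 adipocyte markers Plin1 (1.35) was called higher and Adipoq, which is also in the list of CAR cells, lower, and of 8 muscle markers Acta1 (0.90) was called higher. None of 7 endothelial, 8 neutrophil, 4 plasma cell, 4 T cell, 4 macrophage and 6 osteoclast markers was called. With AP against young mice Ltf and Mpo of the neutrophil list and Cd3e and Cd3g of the T cell list were called higher, at 0.56 to 1.16, and mouse 18 alone had a T cell sum of 254 CPM where the next old + AP-treated mouse had 40.1. With AP, Mepe and Sost were again called higher, Phex, Adipoq, Hba-a1, Hba-a2, Pax5, Col2a1 and Col9a1 lower, and no endothelial, plasma cell, macrophage, osteoclast or muscle marker was called. The part of these lists in the differences of the 10 genes was not tested beyond the fits given above.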

How the data were processed

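Libraries of tibial RNA from 41 mice were sequenced by the authors on a HiSeq2000 and mapped to mm10. The submitters' processing notes name GRCm38, TopHat2 2.0.6 and HTSeq. The annotation release, the strand setting and the treatment of reads with several matches are not given in the sources used here, so that overlapping genes and close paralogs are uncertain. The deposited table holds raw counts per gene, without normalization, in 1 column per mouse, and all columns were used. Groups and mouse numbers were taken from the labels. Replicates are separate mice.

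From these counts edgeR 4.0.16 (R 4.3.3) gave TMM-scaled CPM, a filter by expression (19292 of 43346 genes kept) and the quasi-likelihood test, in 1 model of the 3 groups with all 3 comparisons. Adjusted p-values cover all genes tested. Gene lengths and positions are those of the deposited table. For 7 of the 10 genes both ends equal those of GENCODE vM21, and for Kitl, Foxc1 and Pdgfra they differ at 1 end or both. Correlations used log2 CPM with a prior count of 2, and ratios used counts, both with 100000 permutations in Python 3.11.15 with NumPy 2.4.6. Fewer permutations were used where each mouse was left out in turn. DESeq2 1.42.0 was an alternative. The scripts were tested on simulated data. The 10 genes and all lists (158 different genes, of which 2 were matched by identifier and the rest by symbol) were chosen with earlier results of these data known. Named genes are the 10 members, the genes of each list that were called in a comparison (the 4 largest by fold change where there were more), and the 3 genes most like each member. A gene that this rule would name is not reported here.

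Alternatives were DESeq2, its size factors, upper-quartile scaling, no filter, 2 groups, no fold-change threshold, covariates for marrow and muscle markers, and each mouse left out in turn. The osteoblast covariate, the fits without mice 16, 18 and 19 and the ratios were chosen once the data had been seen. P-values measure the spread between these mice. Depth limits none of the 10 genes, since the lowest count was 273.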

Additional observations from a re-analysis of the deposited data

How the results depend on the processing

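With vehicle against young mice, 4 of the 10 genes were called under every alternative that kept the fold-change threshold, and with AP 3 or 4 under all of these except the osteoblast covariate, where 1 was (Grem1). Without that threshold 6 were called in each. With 1 mouse left out at a time these counts were 4 to 4 and 3 to 4, and 0 to 0 between the old groups. All genes called against young mice without a fold-change threshold were 3736 (vehicle) and 3437 (AP), and 803 with AP under the osteoblast covariate. The count of all genes called between the old groups varied with the setting: 200 by DESeq2, 0 with no filter, 0 in a model of 2 groups, 33 without a fold-change threshold, 133 with the marrow covariate, 1 with the muscle covariate, 0 with the osteoblast covariate, 0 without mice 16, 18 and 19, and from 0 (without mouse 7) to 405 (without mouse 9) with each mouse left out. The ratios that differed there were 0 to 4 with each mouse left out (4 without mouse 27), and the causes were not tested.

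Signs turned for values near 0. Cxcl12 between the old groups (0.000246) was -0.000303 by DESeq2, -0.000302 with its size factors, -0.00645 with no filter, -0.0325 with the marrow, -0.0995 with the muscle covariate, -0.0768 without mice 16, 18 and 19, and from -0.057 (without mouse 16) to 0.074 (without mouse 7) with each mouse left out. Pdgfrb with vehicle against young was -0.0051 with upper-quartile scaling, -0.010 with the marrow covariate, and -0.066 to 0.050 as single mice were left out. Prrx1 was -0.053, -0.088 and -0.013 with the marrow covariate, the muscle covariate and without the 3 mice, and -0.0089 to 0.10 as single mice were left out. Ly6a between the old groups ranged from -0.14 to 0.028 (without mouse 16). Between the old groups single mice also moved Ebf3 (-0.073 to -0.0073), Foxc1 (-0.31 to -0.12), Grem1 (-0.15 to -0.023), Kitl (0.0050 to 0.069), Pdgfra (-0.14 to -0.015) and Pdgfrb (-0.21 to -0.072), none of them called. With the osteoblast covariate Foxc1 and Pdgfrb with AP against young were 0.36 and 0.27, and Ebf3, Pdgfra and Pdgfrb between the old groups 0.017, 0.14 and 0.035. Without the 3 mice Foxc1 with AP against young was 0.0029 and Pdgfra between the old groups 0.030. None of these values had been called. No paired analysis was possible because the groups share no mouse numbers.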

Other observations

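The 3 libraries that stood apart also lay at the ends of their groups for several of the 10 genes. Old + vehicle-treated mouse 16 had the lowest Cxcl12 (569.6 CPM), Grem1 (6.41) and Ebf3 (15.9) and the highest Prrx1 (141) and Ly6a (163) of its 13 mice. Old + AP-treated mouse 18 had the highest Ly6a (151 CPM) of its 16 mice and the second lowest Prrx1 (42.8), Kitl (34.1), Ebf3 (18.2), Foxc1 (9.54) and Pdgfrb (85.5). Old + AP-treated mouse 19 had the lowest Prrx1 (28.2 CPM) and the second highest Lepr (102).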
